A study of Mus musculus with 10 samples.

Results

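The sarcoplasmic reticulum calcium store genes described here are Atp2a1, Atp2a2, Casq1, Casq2, Srl, Hrc, Sln, Pvalb and Sypl2. They were taken by symbol, whatever their values, and all 9 were found among the 23417 genes listed in each of 3 tables of Huwe1 knockdown and the 23431 genes of 1 table of USP10 overexpression. RNA came from C2C12, an immortalized mouse myoblast line that fuses into multinucleated myotubes when serum is reduced. At day 0 the cells were in growth medium, and at day 6 and day 8 they had been in differentiation medium for that number of days. The day 0 and day 6 controls are labelled wild type, whereas the day 8 control received a non-targeting RNA. Each Huwe1 knockdown group holds 2 libraries, 1 for each of 2 hairpins, and the day 8 hairpins differ in sequence from those of day 0 and day 6. Day 8 myotubes were infected with hairpin lentivirus on day 4, after differentiation had begun. The USP10 cells carried a USP10 cDNA under the constitutive EF1a promoter, differentiated for 6 days. Huwe1 is an E3 ubiquitin ligase and USP10 a ubiquitin-specific protease, and the study asked how each bears on the muscle program through the general transcription factor TBP.

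Muscle contracts when calcium leaves the sarcoplasmic reticulum and relaxes when it is pumped back. The pumps of the membrane (SERCA, encoded by the Atp2a genes) fill the store, proteins of its lumen hold the calcium near the release channel, and small peptides of the membrane restrain the pumps. Fast skeletal fibers use mainly SERCA1 and calsequestrin 1, whereas slow fibers, heart and immature muscle use more SERCA2 and calsequestrin 2.

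Expression is given as FPKM, the fragments of a gene scaled to its transcript length and to library size, so that levels of different genes in a column can be compared. Each table holds 1 value for the control and 1 for the treated cells, and the knockdown value pools both libraries. No difference below therefore has a replicate check, and none is given a p-value. The authors' own p-values were not used. Ratios were computed as log2 of treated over control FPKM with 0.01 added to each, a scale on which changes of weakly expressed genes come out too small. A gene was counted if either of the columns compared reached 1 FPKM, and it was called lower or higher when it differed at least 2-fold.

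The control of the USP10 table stands apart and needs to be named before the results. Its header gives the same read file name as the day 6 control of the Huwe1 table, but the values of the columns differ gene by gene, and the depth estimated from the lowest FPKM values was 7820000 fragments here against 30100000 there. It is called the second day 6 control. The other depths that could be estimated were 21900000 (day 0 control), 18100000 (day 8 control) and 27800000 (USP10 cells). Huwe1 itself was at 38.3 FPKM in the day 0 control and 15.2 in its knockdown, at 35.1 and 21.9 at day 6, and at 55.4 and 33.0 at day 8. Usp10 was at 10.3 FPKM in the second day 6 control and 38.3 in USP10 cells, and it was also higher in the day 6 knockdown, at 35.4 against 13.2 FPKM.

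The store genes lie on several chromosomes, and the start regions of those with most to compare are shown because 8 of the 9 genes were lower together in the results below. RefSeq promoter windows of 250 bases before to 50 after the start (build GRCm38.p6) were found for 6 of the 9 genes: Atp2a1, Casq1, Casq2, Hrc, Pvalb and Sypl2. The 100 bases before the start are printed 5′ to 3′ on the strand of the gene, for Atp2a1 (minus strand, chr7:126463074-126463173), Casq1 (minus strand, chr1:172219896-172219995), Casq2 (plus strand, chr3:102086315-102086414), Hrc (plus strand, chr7:45335169-45335268) and Sypl2 (minus strand, chr3:108226600-108226699). Capitals mark each CANNTG, the general E-box pattern, which is not specific to MyoD family factors, and in Casq2 also a match to the MEF2 motif.
Atp2a1: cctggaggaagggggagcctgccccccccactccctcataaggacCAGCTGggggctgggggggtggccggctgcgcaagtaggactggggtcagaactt
Casq1: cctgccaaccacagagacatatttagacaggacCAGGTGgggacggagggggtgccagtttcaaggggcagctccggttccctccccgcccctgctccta
Casq2: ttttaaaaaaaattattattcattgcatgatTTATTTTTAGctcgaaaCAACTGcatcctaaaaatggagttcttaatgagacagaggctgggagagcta
Hrc: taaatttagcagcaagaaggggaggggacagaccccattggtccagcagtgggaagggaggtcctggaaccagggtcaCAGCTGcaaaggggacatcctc
Sypl2: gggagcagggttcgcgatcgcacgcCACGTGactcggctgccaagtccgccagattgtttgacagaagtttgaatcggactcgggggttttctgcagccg

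The E-boxes shown begin 55, 67, 52, 22 and 75 bases before the start, in the order of the lines. CANNTG was searched on both strands of the 300-base windows and was present in all 6 genes found, and it is also present in 72.3% of the 32851 windows of the whole table. CAGCTG, a form of CANNTG that reads alike on both strands, was present in 4 of the 6 genes (Atp2a1, Casq1, Hrc and Sypl2) and in 16.3% of all windows. The MEF2 motif was present in Casq2 and Pvalb and in 3.19% of all windows, and TATAAA in none of the 6 genes and in 13.6% of all windows. A match describes letters of the window and not binding.

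Both pumps were measured in every column, and they differed in where they started. Atp2a2, which encodes SERCA2, was the only member at 1 FPKM or more in myoblasts, with 112.7 FPKM in the day 0 control and 122.1 after knockdown at day 0. It was at 849 FPKM in the day 6 control and 247 in the day 6 knockdown, at 435 and 303 at day 8, and at 332 in the second day 6 control and 165 in USP10 cells. Atp2a2 was thus present in all 8 columns and lowest at day 0, and the treated columns of day 6 and day 8 stayed above both day 0 values. Gene-level FPKM pools the spliced forms of Atp2a2, so the muscle form and the widely expressed form are not separated. In RNA from whole cultures, fewer myotubes and less of an mRNA in each myotube cannot be told apart, here and for every gene below.

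Atp2a1, which encodes the fast-fiber pump SERCA1, was nearly silent in myoblasts, at 0.310 FPKM in the day 0 control and 0.286 in its knockdown. It was at 530 FPKM in the day 6 control and 49.9 in the day 6 knockdown, at 318 and 37.1 at day 8, and at 86.1 in the second day 6 control and 11.9 in USP10 cells. All 3 treated columns of differentiated cells were below all 3 controls. These columns come from separately normalized tables. The share of all genes that separate in this way was not computed, here or for the genes below. The table places Atp2a1 on chromosome 7 from 126428767 to 126463073, a span wider than the RefSeq gene (126445858 to 126463103), and an annotated exon of Rabep2 overlaps its exons by 44 bases.

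The luminal proteins were high in the control myotubes. Casq1 encodes calsequestrin 1, the high-capacity calcium binder of fast fibers. It was at 415 FPKM in the day 6 control and 16.3 in its knockdown, at 174 and 7.83 at day 8, and at 118 and 1.10 in the second control and USP10 cells. At day 0 it was at 0.0250 FPKM in the control, which is about 1 fragment at the estimated depth, and 0.0464 in the knockdown. Casq1 in USP10 cells rested on about 56.5 fragments.

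Casq2, which encodes the cardiac and slow-fiber calsequestrin, was at 508 FPKM in the day 6 control and 96.5 in its knockdown, at 364 and 58.5 at day 8, and at 399 and 45.5 in the second control and USP10 cells. In myoblasts it was at 0.453 and 0.948 FPKM. All 3 controls of differentiated cells lay above the 3 treated columns.

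Srl encodes sarcalumenin, a luminal glycoprotein that binds calcium near the pumps. It was at 179 FPKM in the day 6 control and 20.1 in its knockdown, at 164 and 40.4 at day 8, and at 73.0 and 7.58 in the second control and USP10 cells. Hrc encodes the histidine-rich calcium-binding protein, which contacts both the pump and the release complex. Its levels were 302 and 34.2 FPKM at day 6, 333 and 59.6 at day 8, and 106 and 8.89 in the USP10 table. In myoblasts Srl was at 0.964 FPKM in the control and 0.657 after knockdown, and Hrc at 0.0376 and 0.132. For each of the 4 luminal genes, the treated columns of differentiated cells did not overlap the 3 controls, a separation whose share over all genes was not computed.

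Pvalb encodes parvalbumin, a cytosolic buffer of fast fibers that takes up calcium before the pumps clear it. It was listed at 0 in both myoblast columns, and was at 82.6 FPKM in the day 6 control and 0.951 in its knockdown, at 26.4 and 1.70 at day 8, and at 19.4 and 0.141 in the USP10 table. Sypl2 encodes mitsugumin 29, a membrane protein of the triad, where the store meets the transverse tubule. It was listed at 0 in myoblasts, and was at 5.25 FPKM in the day 6 control and 0.0468 in its knockdown, at 0.883 and 0.269 at day 8, and at 1.19 and 0.0216 in the USP10 table. The Sypl2 value in USP10 cells is worth about 2.45 fragments, under the 0.0264 FPKM that 3 fragments would give, so the size of that ratio is not interpreted, and counts for the USP10 table are given with and without Sypl2.

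Sln encodes sarcolipin, a membrane peptide that inhibits the pump, and it was the exception. It never reached 1 FPKM and was left out of every count. It was listed at 0 in both myoblast columns, in the day 8 control and in both columns of the USP10 table. The day 6 control had 0.0963 FPKM, about 3.82 fragments, the day 6 knockdown 0.269 and the day 8 knockdown 0.391. At the estimated depths 3 fragments of Sln would give 0.291 FPKM in the second day 6 control and 0.126 in the day 8 control. Lower levels would rest on fewer than 3 fragments, so a value of 0 in those columns does not show that Sln was absent. The plot of FPKM by column shows the 9 genes side by side.

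**Figure D1:**
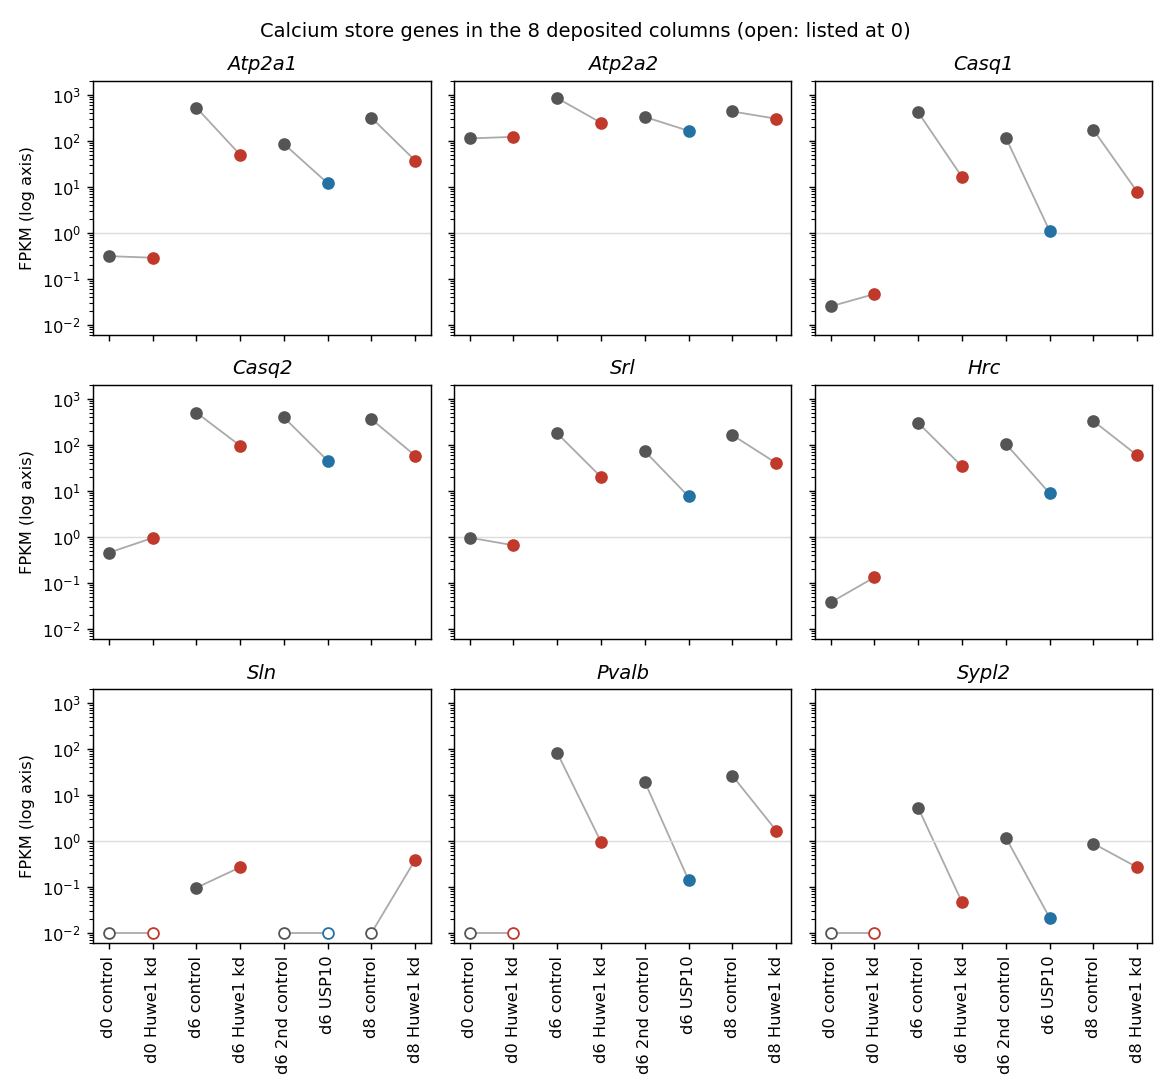
FPKM of the 9 calcium store genes on a logarithmic axis, 1 panel for each gene and 1 point for each deposited column, with grey for controls, red for Huwe1 knockdown and blue for USP10 overexpression. Lines join control and treated columns of a table, open points are values listed at 0 and the pale line is 1 FPKM. Atp2a2 is at 112.7 FPKM or more throughout, the other members are under 1 FPKM at day 0, and 8 of the 9 genes are lower in the treated column of each table of differentiated cells.

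The order of levels within a column also differed. In the day 6 control it ran from Atp2a2 through Atp2a1, Casq2, Casq1, Hrc, Srl, Pvalb and Sypl2 to Sln. In the second day 6 control Casq2 came first, ahead of Atp2a2, and Atp2a1 was in the fifth place. Neighbours in this order cannot be told apart by spread, since a column has 1 value for a gene.

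The first comparison is between control myoblasts and control myotubes, whose columns come from separately normalized tables and are set side by side as a description. Of the 9 members, 8 passed the 1 FPKM minimum and 8 were at least 2-fold higher at day 6 than at day 0. This count follows in part from the filter, since 7 of these members passed only through day 6, and over all 11653 genes 21.5% were called higher. Atp2a2, with a level at both times, was 7.53-fold higher. Atp2a1 was 1656-fold, Casq2 1098-fold and Srl 183-fold higher, from day 0 levels under 1 FPKM.

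Between the day 6 and day 8 controls, 3 members were at least 2-fold lower at day 8, namely Casq1 (2.39-fold), Pvalb (3.13-fold) and Sypl2 (5.89-fold), where 5.81% of all 11525 genes were called lower. Atp2a2 was 1.95-fold, Atp2a1 1.66-fold and Casq2 1.40-fold lower, and Srl and Hrc differed by 1.09-fold and 1.10-fold. The day 8 control therefore had lower levels of 7 of the 8 members that were counted, the exception being Hrc. It differs from the day 6 control also in having received a non-targeting RNA. Proliferating-cell markers summed to 3.76 FPKM in the day 6 control and 151 in that of day 8, and myotube markers to 15195 and 13464. The part of such differences in the member levels was not tested. Sypl2 reached 1 FPKM only at day 6, so its call follows in part from the filter.

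Huwe1 knockdown in myoblasts left the only member that could be counted near its control. Atp2a2 differed by a log2 ratio of 0.12 and was not called, where 1.69% of all 10874 genes were called lower and 1.9% higher. The other members were under 1 FPKM and could not be called either way. Of the others, 5 were between 0.0250 and 0.964 FPKM in both columns and 3 were listed at 0. With 1 value per condition no test was run on this ratio.

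Huwe1 knockdown at day 6 went with lower levels of every store gene that was counted. Of the 9 members 8 passed the minimum and 8 were at least 2-fold lower, where 13.4% of all 11695 genes were called lower and 17.6% higher. Their median log2 ratio was -3.28, beside -0.01 over all genes. Pvalb and Sypl2 passed only through the control, so their calls follow in part from the filter. With 1 FPKM required in both columns, 6 of 6 members were at least 2-fold lower, as were 1106 of all 10292 genes. Pvalb (log2 ratio -6.43) and Sypl2 (-6.53) differed most on this scale, and Pvalb ranked as number 53 from the lowest of the 11695 genes. The place of Sypl2 rests on 0.0468 FPKM in the knockdown, and with 1 FPKM added its log2 ratio was -2.58, behind Pvalb (-5.42), Casq1, Atp2a1, Hrc and Srl. Casq1 followed at -4.67 and Atp2a1 at -3.41, then Srl at -3.15, Hrc at -3.14, Casq2 at -2.40 and Atp2a2 at -1.78. Between the paired isoforms, the fast-fiber form was the more reduced, 10.6-fold for Atp2a1 against 3.44-fold for Atp2a2 and 25.4-fold for Casq1 against 5.26-fold for Casq2.

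The day 6 knockdown cells were also set beside knockdown myoblasts. Of the 9 members 6 reached 1 FPKM in either knockdown column, and 6 were at least 2-fold higher at day 6 than at day 0, where 19.1% of all 11594 genes were called higher. This count follows largely from the filter, since all of these but Atp2a2 passed only through day 6. Atp2a1 was 168-fold and Casq2 101-fold higher in this comparison, whereas Atp2a2 was 2.02-fold higher, just past the threshold.

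When knockdown began in cells that had already differentiated for 4 days, 7 of the 9 members passed the minimum at day 8 and 6 were at least 2-fold lower, where 10% of all 11755 genes were called lower and 7.89% higher. The median log2 ratio of the members was -2.63, beside 0.00 over all genes. Casq1 was 22.2-fold and Pvalb 15.5-fold lower, Atp2a1 8.58-fold, Casq2 6.21-fold, Hrc 5.59-fold and Srl 4.07-fold. Atp2a2 was the exception, at a log2 ratio of -0.53, or 1.44-fold lower. Sypl2 was at 0.883 FPKM in the control and so was not counted.

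USP10 overexpression at day 6 went with lower levels of the same 8 members that passed at day 6, each at least 2-fold, where 10% of all 11482 genes were called lower and 9.7% higher. The median log2 ratio of the members was -3.42, beside 0.05 over all genes. Without Sypl2 it was 7 of 7 members and a median of -3.27. Pvalb and Sypl2 passed the minimum only through the control, so their calls follow in part from the filter. Pvalb was 128-fold and Casq1 106-fold lower, and Pvalb ranked as number 35 from the lowest of the 11482 genes. Hrc was 11.9-fold, Srl 9.63-fold, Casq2 8.76-fold and Atp2a1 7.21-fold lower. Atp2a2 was 2.01-fold lower, a value that only just passes the threshold. The plot of log2 ratios sets the members beside the whole of each table.

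**Figure D2:**
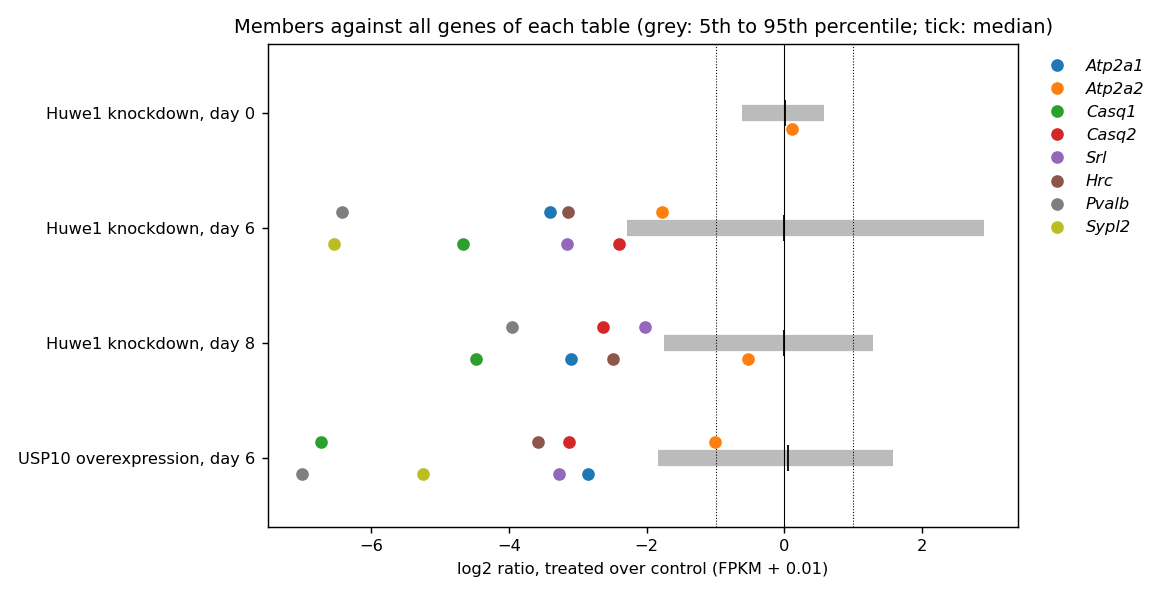
Log2 ratio of treated over control FPKM (with 0.01 added) for the members that passed 1 FPKM in each of the 4 tables; grey bars span the 5th to the 95th percentile of all genes, ticks mark their median and dotted lines mark 2-fold. At day 6 Pvalb (-6.43) and Sypl2 (-6.53) lie farthest to the left, and Atp2a2 lies nearest to 0 in every table with more than 1 member plotted (-1.78, -0.53 and -1.01). The Sypl2 point with USP10 rests on about 2.45 fragments.

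The only measure of how far controls of 1 day can differ comes from the 2 day 6 controls. The second was lower than the first for 8 of the 8 members that passed, and at least 2-fold lower for 7 of them, where 8.66% of all 11459 genes were called lower. Atp2a1 differed 6.16-fold, Sypl2 4.38-fold, Pvalb 4.26-fold, Casq1 3.53-fold, Hrc 2.84-fold, Atp2a2 2.56-fold and Srl 2.45-fold, and Casq2 1.27-fold. The knockdown ratio at day 6 was larger than this difference for 8 of 8 members. Both are taken from the first control, so this says only that the knockdown was also below the second control. The USP10 ratio was larger for 7 of 8, or 6 of 7 without Sypl2, the exception being Atp2a2. The USP10 ratio and the difference between controls share the second control. The share of all genes with a larger ratio was not computed, for the knockdown or for USP10.

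Set beside the control of the other table, the day 6 knockdown was lower for 8 of 8 members, the same result as above. It was at least 2-fold lower for 6, where 9.92% of all 11696 genes were called lower. Atp2a1, at 49.9 FPKM in the knockdown and 86.1 in the second control, had a log2 ratio of -0.79, and Atp2a2 one of -0.43. Casq1 (-2.85), Casq2 (-2.05), Srl (-1.86), Hrc (-1.63), Pvalb (-4.34) and Sypl2 (-4.40) remained past the threshold. USP10 cells were at least 2-fold below the first day 6 control for 8 of 8 members, or 7 of 7 without Sypl2, where 15.5% of all 11597 genes were called lower. These ratios cross separately normalized tables, and in them Pvalb and Sypl2 reached 1 FPKM only in the control.

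The share of SERCA1 in the pump mRNA does not depend on how a column was scaled. Atp2a1 made up 38.5% of the summed FPKM of both pumps in the day 6 control, 42.2% in the day 8 control and 20.6% in the second day 6 control. The share was 16.8% in the day 6 knockdown, 10.9% in the day 8 knockdown and 6.74% in USP10 cells. In myoblasts it was 0.274% in the control and 0.234% in the knockdown. The treated columns of differentiated cells were thus below every differentiated control and above both myoblast columns.

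The ratio of Atp2a1 to Atp2a2 was 3.09-fold lower in the knockdown at day 6, 5.96-fold lower at day 8 and 3.59-fold lower with USP10, and it differed 2.41-fold between the day 6 controls. Each of the 3 differences was larger than the one between controls. The day 6 knockdown difference and that between controls share the first control, and the USP10 difference shares the second. Set beside the second day 6 control, the ratio was 0.202 in the day 6 knockdown and 0.260 in that control. For day 8 the controls compared are of another day. Atp2a1 and Atp2a2 transcripts share 0 words of 50 bases in the annotation, so reads of that length without mismatches separate them.

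The calsequestrins showed a similar order. Casq1 made up 45.0% of the summed calsequestrin FPKM in the day 6 control, 32.4% in the day 8 control and 22.8% in the second day 6 control, and 14.5%, 11.8% and 2.36% in the respective treated columns. The ratio of Casq1 to Casq2 was 4.83-fold, 3.58-fold and 12.1-fold lower, beside 2.77-fold between the day 6 controls. It was 0.169 in the day 6 knockdown and 0.295 in the second day 6 control. Casq1 and Casq2 transcripts also share 0 words of 50 bases, and an annotated exon of Gm17224 overlaps those of Casq1 by 101 bases.

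**Figure D3:**
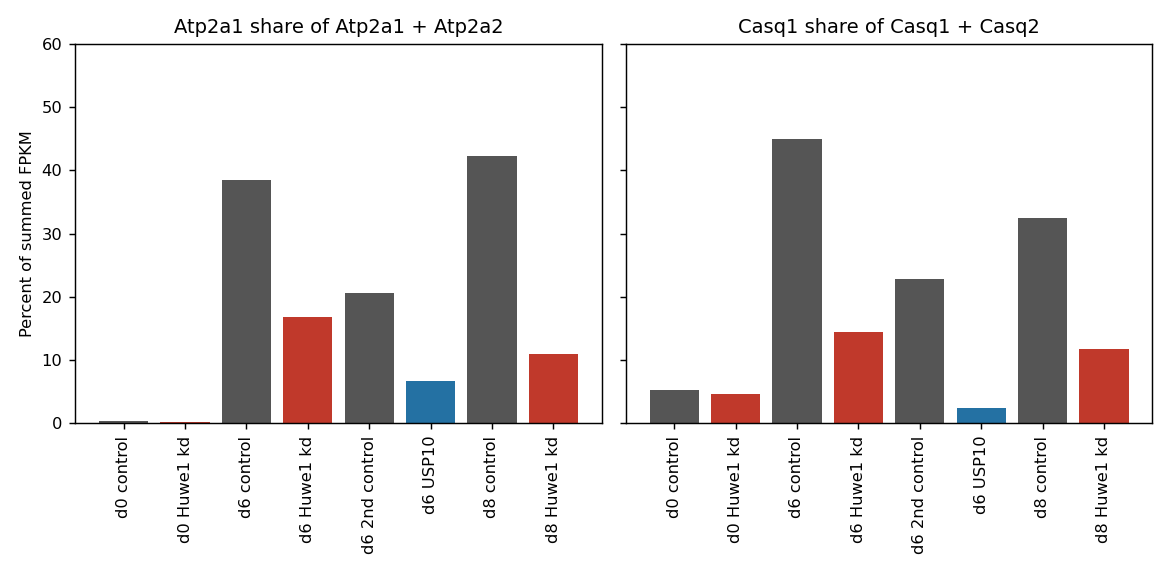
Percent of summed FPKM held by the fast-fiber form, Atp2a1 among both pumps on the left and Casq1 among both calsequestrins on the right, in the 8 columns; bars are single values with no error. Atp2a1 reaches 42.2% in the day 8 control and is at 6.74% in USP10 cells, and Casq1 reaches 45.0% in the day 6 control and is at 2.36% in USP10 cells.

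The summed luminal binders differed more than the summed pumps within each table of differentiated cells, the pump sum being mostly Atp2a2. Summed over Casq1, Casq2, Srl and Hrc, FPKM was 1404 in the day 6 control and 167 in its knockdown, 1035 and 166 at day 8, and 696 and 63.1 in the USP10 table. Summed over both pumps it was 1379 and 297, 754 and 340, and 418 and 177. Luminal FPKM for each pump FPKM was therefore 1.02 in the day 6 control and 0.564 in its knockdown, 1.37 and 0.490 at day 8, and 1.67 and 0.356 in the USP10 table, with the 3 treated columns below the 3 controls. Taken singly, Atp2a1 was more reduced than Casq2, Srl and Hrc at day 6 and day 8, and between the day 6 controls the pump sum differed more than the luminal sum, 3.30-fold against 2.02-fold. In myoblasts the same ratio was 0.0131 and 0.0146, since Atp2a2 was present and the luminal genes were not.

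Within the luminal genes, Casq2 held 36.2% of the sum in the day 6 control and 57.7% in its knockdown, and 57.3% in the second control and 72.2% in USP10 cells. At day 8 Casq2 held 35.1% and 35.2%, and Srl instead was at 15.9% in the control and 24.3% in the knockdown. Casq1 was the gene whose share was lower in each treated column, at 29.6% and 9.77%, 16.8% and 4.71%, and 16.9% and 1.75%.

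**Figure D4:**
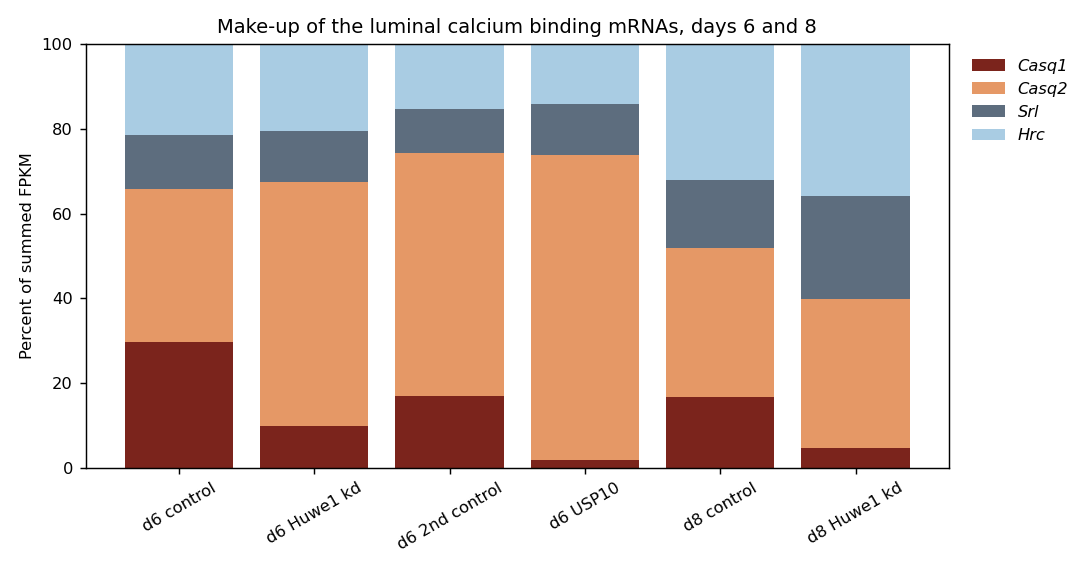
Percent of the summed FPKM of Casq1, Casq2, Srl and Hrc held by each gene in the 6 columns of differentiated cells, each stack adding to the whole. The Casq1 segment is smaller in the treated column of each table, from 29.6% to 9.77% at day 6, from 16.8% to 4.71% at day 8 and from 16.9% to 1.75% with USP10.

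The other genes of calcium handling are given by lists written from general knowledge. Among 17 genes of the release channel and the triad, 16 passed at day 6 and 10 were at least 2-fold lower in the knockdown, with a median log2 ratio of -1.66. At day 8 the count was 9 of 16 with a median of -1.17, and with USP10 it was 8 of 16 with a median of -0.92. None was at least 2-fold higher in any of these tables. The list also differed between the day 6 controls, where 9 of 16 were lower in the second and the median was -1.12. In myoblasts 0 of 12 were called, although all 12 were lower in the knockdown, with a median of -0.39.

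Ryr1, the calcium release channel of skeletal muscle, was at 133 FPKM in the day 6 control and 27.3 in its knockdown, and at 67.2 and 17.3 in the USP10 table. Cacna1s, the voltage sensor of the transverse tubule, was at 147 and 19.7 FPKM at day 6. Tmem38a, a potassium channel that balances charge during release, was at 306 and 42.5 at day 6, 322 and 53.4 at day 8, and 92.9 and 19.4 in the USP10 table. Trdn, triadin, which anchors calsequestrin to the channel, was at 101 and 30.1 FPKM in the USP10 table. With Huwe1 knockdown Trdn was nearer to its control, at 84.0 and 71.1 FPKM at day 6 and 46.2 and 39.7 at day 8. Stac3, an adaptor of the voltage sensor, was at 70.4 and 20.1 FPKM at day 8, and Jph1, which ties the store to the tubule, at 35.4 and 9.86.

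Of the pump inhibitors measured, Sln, Pln and myoregulin, only myoregulin reached 1 FPKM. The list of inhibitors and other calcium pumps holds 8 genes, of which 5 were in the tables and 3 passed at day 6. Myoregulin, listed under its older symbol 2310015B20Rik, was at 28.3 FPKM in the day 6 control and 4.27 in its knockdown, at 10.4 and 6.71 at day 8, and at 8.80 and 0.413 in the USP10 table. Pln, the inhibitor of the heart pump, was at 0.462 FPKM or less in every column, as Sln was. Atp2a3, another SERCA gene that shares 4 words of 50 bases with Atp2a1, was at 4.92 FPKM in the day 6 control and 0.569 in its knockdown, and it was lower also at day 8 and with USP10.

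Calcium-binding proteins of the general endoplasmic reticulum did not share the pattern of the luminal store genes. Of 12 such genes all passed, 0 were at least 2-fold lower and 1 was higher in the day 6 knockdown, with a median log2 ratio of 0.33. At day 8 none was called and the median was 0.07. With USP10 the median was -0.18, and 1 gene was lower, Calr (calreticulin), at 1257 FPKM in the control and 387 in USP10 cells. The gene called higher at day 6 was Rcn3, at 13.6 and 43.9 FPKM. Rcn3, Hsp90b1 and Pdia4 were also at least 2-fold higher in the second day 6 control than in the first.

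Other routes of calcium moved in both directions. Among 6 genes of store-operated entry 2 were lower and 1 higher at day 6, 0 were called at day 8, and 2 were lower and 1 higher with USP10. Stim1, the sensor of store filling, was at 49.6 and 11.1 FPKM at day 6 and at 21.4 and 8.35 in the USP10 table. Orai1, the channel that Stim1 opens, was the other gene lower in both, and Trpc1 the one higher in both. All 3 inositol trisphosphate receptor genes were at least 2-fold higher in the day 6 knockdown, and 0 of 3 at day 8 or with USP10. The same 3 genes were also higher in the second day 6 control than in the first, with a median log2 ratio of 1.63.

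Atp2b1, a plasma membrane calcium pump, was at 23.8 and 88.7 FPKM at day 6 and at 21.3 and 64.3 in the USP10 table. Of the 7 extrusion genes 3 passed, and 1 was lower and 1 higher at day 6, 0 were called at day 8, and 2 were lower and 1 higher with USP10. Slc8a1, a sodium-calcium exchanger, was lower in both, and Atp2b4 was lower with USP10. Among 6 genes of the mitochondrial uniporter 1 was higher at day 6 and with USP10, Ccdc109b (now Mcub), at 0.656 and 43.7 FPKM and at 7.56 and 48.1. At day 8 Mcu, the pore of that channel, was the one called, at 55.1 FPKM in the control and 18.7 after knockdown. Cytosolic calcium binders other than Pvalb had 4 of 8 genes counted and 0 called in these 3 tables. In the synaptophysin family, to which Sypl2 belongs, 1 of 3 other genes was counted and 0 were called.

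Markers of the muscle cells and of other cell types also differed, not all in the same direction in each table, and their part in these results was not tested. The 8 myotube markers summed to 15195 FPKM in the day 6 control and 3082 in its knockdown, 13464 and 3051 at day 8, and 7011 and 3487 in the USP10 table. Of these 8 genes 7, 8 and 6 were at least 2-fold lower, with median log2 ratios of -2.72, -2.37 and -2.02. The members' own medians in the same tables were -3.28, -2.63 and -3.42. In the second day 6 control, 5 of the 8 myotube markers were likewise at least 2-fold below the first.

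Mesenchymal markers summed to 17.7 FPKM in the day 6 control and 3828 in its knockdown, and to 170 and 3656 in the USP10 table, with Dcn (decorin) the most abundant at 2987 FPKM in the knockdown and 3037 in USP10 cells. Of 6 such genes 5 were counted and 5 were higher at day 6, and 3 were higher with USP10. The remaining gene, Thy1, was listed at 0 in 6 of the 8 columns, the day 6 control among them. The 5 counted genes were also at least 2-fold higher in the second day 6 control than in the first, with a median log2 ratio of 3.61. At day 8 the sum was 96.3 FPKM in the control and 91.6 after knockdown. Proliferating-cell markers summed to 3.76 and 19.1 FPKM at day 6, to 151 and 13.8 at day 8, and to 14.2 and 11.5 in the USP10 table. All 5 of them were likewise at least 2-fold higher in the second day 6 control than in the first (median log2 ratio 2.01). Myoblast markers summed to 1935 and 1164, 1669 and 756, and 1149 and 1053 FPKM, mostly from Des, which is also a myotube marker and was at 1769 FPKM in the day 6 control. The other genes of this list did not move alike. Myf5 was at 3.51 and 18.5 FPKM at day 6 and at 4.79 and 20.2 in the USP10 table. Pax7 was at 7.54 and 0.0438 FPKM at day 6, 24.7 and 36.7 at day 8, and 8.27 and 0.0808 in the USP10 table. Myod1 was at 155 and 62.7 FPKM at day 6, 127 and 107 at day 8, and 83.5 and 50.4 in the USP10 table. Heart markers summed to 44.4 FPKM or less in every column, and Myl7, which marks the atrium, was listed at 0 in 6 of the 8. The most abundant of them in the differentiated controls was Myh6, at 17.3 FPKM in the day 6 control and 0.864 in its knockdown, and at 30.5 and 0.255 in the USP10 table. Of 12 housekeeping genes 0 were lower and 2 higher at day 6, 0 were called at day 8, and 0 were lower and 2 higher with USP10. These were B2m and Actb at day 6, and B2m and Tbp, the TATA-binding protein itself, with USP10. Between the day 6 controls B2m already differed by a log2 ratio of 1.56 and Tbp by 1.37, both higher in the second.

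The genes whose pattern over the 8 columns was most like each member were ranked by the root mean square difference of centred log2(FPKM + 0.1), among 12623 genes. For Atp2a1 the nearest was Chrng, the fetal subunit of the acetylcholine receptor, at 0.50 log2 units. For Casq1 it was Myh4, a fast myosin heavy chain, at 0.79, and for Casq2 it was Myom1, a protein of the M band, at 0.45. Hrc was nearest to Ckm, muscle creatine kinase, at 0.45, and Pvalb to Myot, a protein of the Z disc, at 0.57.

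Among the rest, Srl was nearest to Hspb3, a small heat shock protein, at 0.41, and Sypl2 to Acot6 at 0.37. Atp2a2 had the closest match, Ehbp1l1, at 0.12, and its nearest other member was Sln, a gene near 0 throughout, at 1.07. Among the members themselves, the most alike pair was Atp2a1 and Hrc, at 0.67. The points are single values of columns that share a cell line, and no test was made of this likeness.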

How the data were processed

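Polyadenylated RNA of C2C12 cells was sequenced as strand-specific libraries, 10 in the labels. Reads were aligned by the authors with Tophat and gene levels estimated with Cuffdiff, and the submitters' processing notes also name Bowtie2 and the build mm10. Tool versions and the strand setting used in counting are not given in the sources used here. The deposited values are FPKM, 1 control and 1 treated column in each of 4 separately normalized tables, 8 columns in all, with the 2 knockdown libraries of a group pooled. The deposited tables also hold the authors' log2 fold change, test statistic, p-value and q-value, which were not used. The control of the USP10 table could not be mapped to a labelled sample, and it is used as the authors' value.

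Ratios were log2 with 0.01 FPKM added, over genes that reached 1 FPKM in either column, at a 2-fold threshold. No test was made here, with 1 value per condition. Alternatives were 0.1 or 1 FPKM added, a minimum of 5 FPKM, of 1 FPKM in both columns or none, 4-fold, and centring on the median gene with at least 1 FPKM in both columns, which moved ratios by up to 0.08 on the log2 scale. Leaving out Sypl2 with USP10 was chosen after seeing the data. Depth was estimated from what 1 fragment is worth among low values of genes with 1 transcript of at least 1500 bases. Pooled columns gave no estimate, and these depths cover counting error only.

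The members, and 15 lists of 111 gene entries, of which 108 were in the tables, were chosen with earlier results of these data known. All members are named. A list gene is named if it reached 10 FPKM in a column and differed 2-fold in a table, at most 4 for each list and comparison, and myoregulin at day 8, Pln, Atp2a3, Orai1, Trpc1, Slc8a1, Hsp90b1, Pdia4, Thy1 and Myl7 were added after their values were seen. The 3 genes most like each member were ranked, and the nearest is named. Promoters were taken from RefSeq (GRCm38.p6). Scripts were tested on simulated data, under Python 3.11.15 with matplotlib 3.10.9, pandas 2.3.3 and numpy 2.4.6.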

Additional observations from a re-analysis of the deposited data

Results flagged for a closer look

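Atp2a2, the SERCA2 pump and the only member that could be counted at day 0, was near its control there and lower with knockdown later. Its log2 ratio of knockdown to control was 0.12 in myoblasts at day 0, -1.78 at day 6 and -0.53 in day 8 myotubes. The day 0 ratio lies within the 5th to 95th percentile of all genes at day 0 (-0.62 to 0.57), so it is not read as a change in the other direction. The difference between these ratios was not tested, since each rests on 1 value per condition. At day 6 the difference between the 2 controls, 2.56-fold, was smaller than the 3.44-fold difference with knockdown, and at day 8 no second control was analysed here. Both day 6 differences are taken from the first control, and the knockdown was 1.34-fold below the second. Casq1, Casq2 and Hrc were likewise higher with knockdown at day 0 and lower later, by log2 ratios of 0.69, 1.05 and 1.58 at day 0, but from levels under 1 FPKM.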

How the results depend on the processing

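No paired analysis was possible because the knockdown columns pool their libraries and the results come from no test, and leaving out single replicates was not possible for the same reason. Of 306 member ratios recomputed under the alternatives, 277 moved by less than 1.5-fold, 29 moved more and 0 of those at 2-fold or more reversed, and of 240 list medians 14 moved and 1 reversed. That one, plasma membrane calcium extrusion with USP10, was -1.10 and became 0.25 with a minimum of 5 FPKM, which left 2 genes. With no minimum, the members called higher with Huwe1 knockdown were 2 at day 0 and 1 each at day 6 and day 8, in place of 0. With 1 FPKM required in both columns, only 1 member was counted and higher from day 0 to day 6, in the controls and in the knockdown alike. At 4-fold, 1 member was lower in the day 8 control than at day 6, and 3 were lower in the second day 6 control. With 1 FPKM added, the log2 ratio of Atp2a1 to Atp2a2 at day 0 was -6.44 in the control and -6.58 in the knockdown, in place of -8.46 and -8.69. The log2 ratio of Casq1 to Casq2 at day 0 was -2.14 and -2.84 with 0.1 FPKM added, -0.50 and -0.90 with 1 FPKM added, in place of -3.72 and -4.09, and in USP10 cells it was -4.47 with 1 FPKM added, in place of -5.36. Leaving out Sypl2, a choice made after seeing the data, left 7 of 7 members lower with USP10. Over all genes, the 1571 lower calls at day 6 became 693 at 4-fold and 3141 with no minimum, the 1180 at day 8 became 480 and 3640, the 1153 with USP10 became 517 and 2880, and the 184 at day 0 became 28 and 953. Low depth limits Sypl2, Sln and the day 0 values most.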
